A study of Mus musculus with 11 samples.

Results

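The CCN family of matricellular proteins was followed in brain vascular cells of CADASIL mice through 5 of its genes, Ccn1, Ccn2, Ccn3, Ccn4 and Ccn5, out of 32287 genes listed in the deposited single-cell counts. The members were the rows carrying these symbols, and their unique molecular identifiers (UMIs) were summed per mouse over cells gated by marker genes. The family was chosen by the genotype contrast in endothelial cells, in which Ccn2 and Ccn3 ranked high. The endothelial difference between genotypes is therefore given below as a description without a test, and no cut-off value was part of the choice. CADASIL is a small vessel disease of the brain caused by variants of NOTCH3, a receptor of mural cells. The 6 R182C-TgN3 mice carried human NOTCH3 as a transgene in its R182C form, and the 5 WT-TgN3 mice the wild-type form of the same transgene, so that every mouse also kept its own Notch3 gene. All mice were untreated, of either sex, and 6 months (6 mice) or 9 months (5 mice) old. Vessel fragments were captured from digested brain with magnetic beads against CD31, which endothelial cells carry on their surface, digested again to single cells and made into 1 droplet library per mouse.

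CCN proteins are secreted into the extracellular matrix, where they bind integrins, heparan sulphate proteoglycans and growth factors instead of building the matrix itself. Ccn1 (CYR61) and Ccn2 (CTGF) are rapid targets of the YAP and TAZ coactivators, which act through TEAD factors, and they also respond to serum response factor, TGF-beta and mechanical load. Ccn3 (NOV) was found to bind Notch receptors and often opposes Ccn2, Ccn4 (WISP1) is a Wnt target of mesenchymal cells, and Ccn5 (WISP2) lacks the carboxy-terminal domain of its relatives. In vessels, Ccn1 and Ccn2 are known from endothelial growth and from smooth muscle cells (SMC), and Ccn3 from quiescent endothelium.

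The 5 genes lie on 4 mouse chromosomes (mm10, GENCODE vM21), and each is annotated as protein coding. Ccn1 (ENSMUSG00000028195) spans 145646976 to 145649981 on the minus strand of chromosome 3, and Ccn2 (ENSMUSG00000019997) spans 24595442 to 24598683 on the plus strand of chromosome 10. Ccn3 (ENSMUSG00000037362, 54745702 to 54754039) and Ccn4 (ENSMUSG00000005124, 66891320 to 66923201) are both on the plus strand of chromosome 15. Ccn5 (ENSMUSG00000027656) spans 163820861 to 163833146 on the plus strand of chromosome 2. The RefSeq promoter table held 1 of the 5 members, Ccn1. Its 250 bases before the RefSeq start (GRCm38.p6, chr3:145649986-145650235, minus strand) are shown because Ccn1 is read below against YAP/TAZ, SRF and immediate-early genes.
Ccn1 promoter: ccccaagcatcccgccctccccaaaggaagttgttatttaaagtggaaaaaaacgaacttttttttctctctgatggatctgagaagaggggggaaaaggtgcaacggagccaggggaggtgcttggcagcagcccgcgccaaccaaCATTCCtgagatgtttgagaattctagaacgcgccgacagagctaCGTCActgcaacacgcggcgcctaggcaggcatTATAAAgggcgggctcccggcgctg
Capitals mark a TEAD motif (CATTCC, 103 bases before the start), a half-site of the cAMP response element (CGTCA, 58 bases before it) and a TATA box (TATAAA, 25 bases before it). These letters were searched on both strands and are found in 12.6%, 17.8% and 12.4% of 32851 mouse promoters of this length, and a match in letters is no evidence of binding.

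Of 66658 barcodes, 58579 were kept as single cells, between 2908 and 9099 per mouse, from libraries of 17550806 to 64215050 UMIs. Marker genes, none of them a CCN gene, gated 34492 endothelial cells that were not fenestrated. Among these, 19299 were capillary, 2965 venous, 2546 arterial and 709 large-artery endothelial cells, and 8973 had no subtype. A further 1719 fenestrated endothelial cells, 2124 SMC, 503 pericytes, 96 fibroblasts and 14069 microglia were gated, while 4264 cells (7.28%) fell in no gate. The typical cell of each gate held most of its own markers (a median of 10 of 11 for endothelial cells, 6 of 6 for SMC and 5 of 5 for pericytes). Levels are given in CPM, the UMIs of the gene per 1e+06 UMIs of that cell type in the mouse. Human NOTCH3 in SMC lay between 195 and 356 CPM in R182C-TgN3 mice and between 13.6 and 70.0 CPM in WT-TgN3 mice. The genotype labels were thus separated by the transgene. Its form and its RNA level differed together between the groups, so the 2 cannot be told apart in the genotype comparisons. Pericytes were compared in 10 mice with at least 20 cells and fibroblasts in 4 mice with at least 10 cells, and other types in all 11. The libraries shared 966 barcodes, 324 of them in 3 or more libraries. R182C-TgN3 mice 4 and 5 had 350 in common. Sharing also crossed genotypes, with 286 between R182C-TgN3 mouse 4 and WT-TgN3 mouse 3 and 278 between R182C-TgN3 mouse 5 and WT-TgN3 mouse 3. Any other 2 libraries had at most 191 in common. Shared barcodes made up 2.85% of the kept cells and 1.84% of their UMIs. Without them no member's call in the fits across all genes changed. R182C-TgN3 mouse 4 gave 224 of the 709 large-artery cells, and R182C-TgN3 mouse 3, the only mouse of its batch, stood apart in several values below. A batch here is a date-like code of the samples, and the step that it dates was not established. Each of the 4 batches held mice of 1 age, so age and batch cannot be told apart.

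Ccn1 was detected in every endothelial subtype and in SMC at levels of the same order. Its level over the 11 mice was 346 ± 102 CPM (SD, n = 11) in large-artery endothelial cells, 317 ± 47.4 in SMC, 303 ± 91.2 in arterial, 252 ± 71.5 in capillary, 220 ± 63.6 in fenestrated and 199 ± 74.1 in venous endothelial cells. Pericytes held 20.8 ± 22.9 CPM (n = 10) and microglia 2.58 ± 0.89 CPM (n = 11). The SMC of single mice ran from 246 to 416 CPM and the endothelial cells from 171 to 420 CPM, so that the ranges overlapped widely. The 4 mice with fibroblasts had 144 ± 80.4 CPM in them.

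Ccn2 was highest in SMC and fibroblasts. It reached 158 ± 40.3 CPM (n = 11) in SMC, where single mice ran from 76.0 to 222 CPM, and 153 ± 106 CPM (n = 4) in fibroblasts. Among endothelial cells its highest level was in the fenestrated type at 66.5 ± 33.2 CPM, with 37.1 ± 43.5 in large-artery, 16.7 ± 6.34 in capillary, 11.1 ± 3.97 in venous and 5.58 ± 2.55 CPM in arterial cells. Arterial cells, next to SMC in the vessel wall, thus had the lowest Ccn2 mean of the endothelial subtypes, and they had less than venous cells in 10 of 11 mice. Pericytes had 14.2 ± 13.5 CPM (n = 10), and microglia 0.26 ± 0.19 CPM.

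Among the gated types, Ccn3 had its highest mean level in arterial endothelial cells. It stood at 97.4 ± 41.0 CPM (n = 11) in arterial cells and 58.2 ± 50.9 in large-artery cells, against 14.2 ± 8.63 in SMC, 6.24 ± 3.53 in fenestrated, 5.80 ± 3.66 in capillary and 1.29 ± 0.76 CPM in venous cells. Of 4952 Ccn3 UMIs in endothelial cells outside the fenestrated type, arterial cells held 1914, capillary 586, large-artery 200 and venous 42. The rest lay in endothelial cells with no subtype. In arterial cells the 6 R182C-TgN3 mice had 100.3, 93.1, 1.35, 103, 118 and 49.5 CPM and the 5 WT-TgN3 mice 125, 107, 119, 156 and 98.8 CPM. The value of 1.35 CPM, from R182C-TgN3 mouse 3, came from 2 UMIs in 212 arterial cells and was far below all the others. The same mouse had the highest Ccn3 level in SMC, 30.8 CPM, against 2.19 to 24.1 CPM in the other 10 mice. The cause of this difference within mouse 3 was not tested. Pericytes had 1 UMI of Ccn3 in 1 of 10 mice, and the fibroblasts of the 4 compared mice had none.

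Ccn4 was low throughout, at 12.2 ± 5.22 CPM in fibroblasts (n = 4), 7.86 ± 2.17 in arterial endothelial cells and 6.66 ± 2.78 CPM in SMC (n = 11 for both). It was 3.25 ± 1.35 CPM in capillary and 1.69 CPM in venous cells. No Ccn4 UMI was counted in pericytes, where 3 UMIs over the 10 mice would make 1.75 CPM. Ccn5 was near the limit of detection, with 3 UMIs in all endothelial cells outside the fenestrated type and 3 in SMC, and with 0 in arterial, large-artery, venous and fenestrated endothelial cells, pericytes, fibroblasts and microglia. The family gene Ccn6 (ENSMUSG00000062074), which was not a member, had 5 UMIs in pericytes, from 4 mice, and 13 in endothelial cells.

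**Figure D1:**
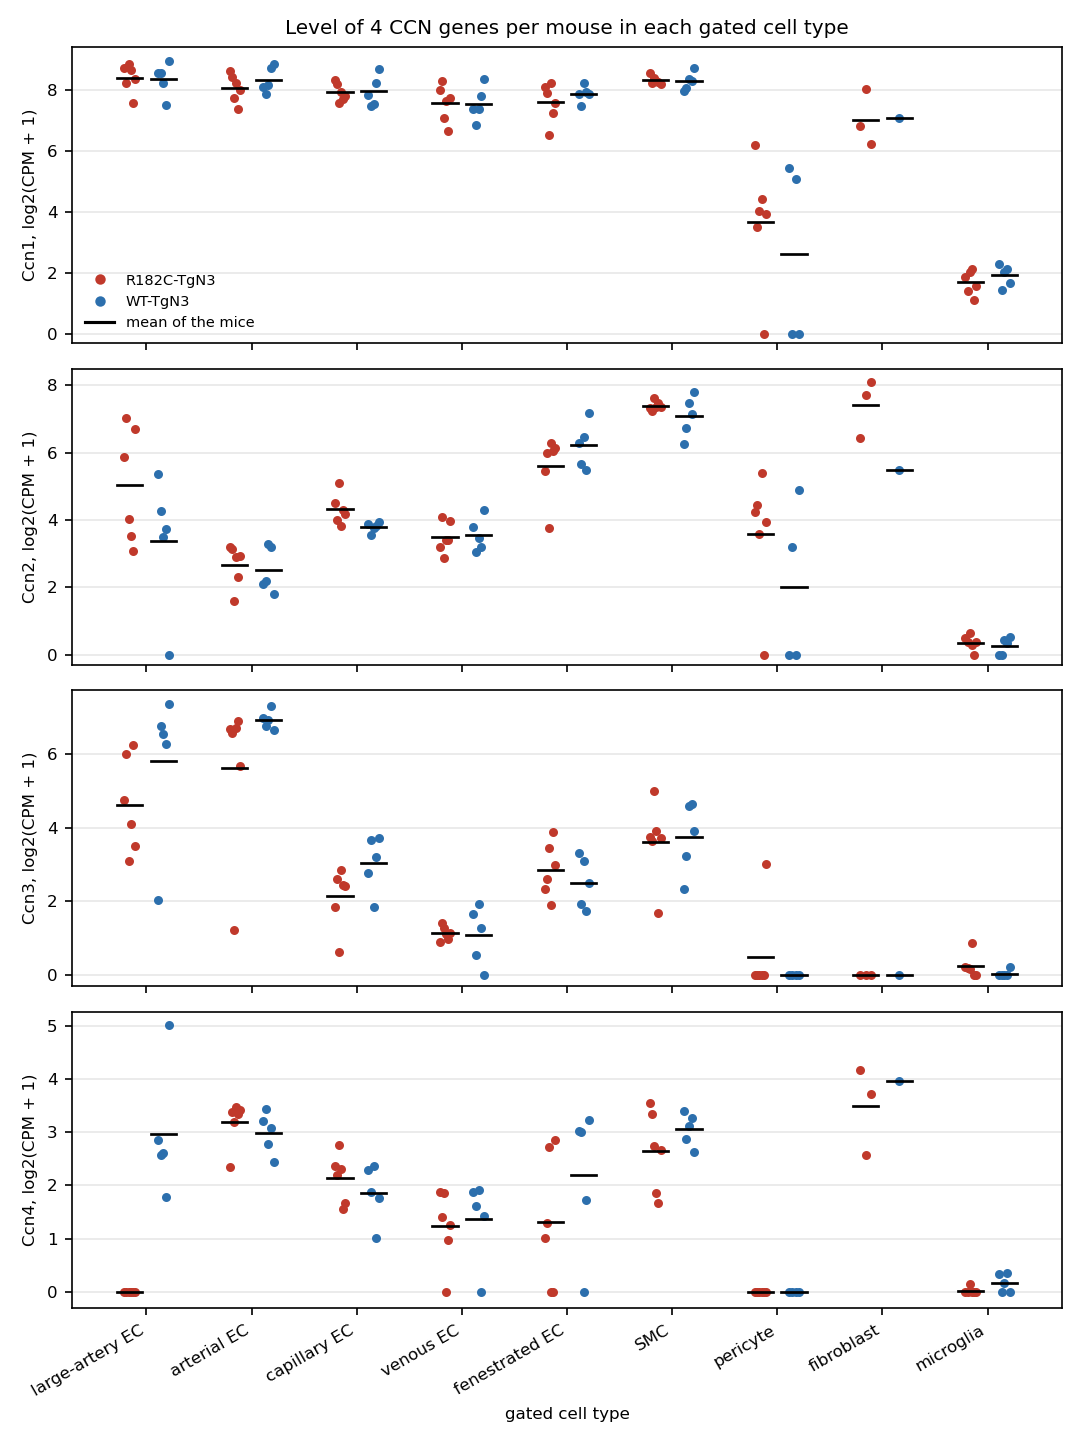
Level of Ccn1, Ccn2, Ccn3 and Ccn4 as log2(CPM + 1), 1 point per mouse, by gated cell type and genotype, with black lines for the mean of the plotted values. Ccn1 is high in all endothelial subtypes and SMC and low in pericytes and microglia, Ccn2 is highest in SMC and fibroblasts, and Ccn3 is highest in arterial cells with 1 R182C-TgN3 mouse near the bottom of the scale.

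Neighbours in the order of mean levels were compared within mice by a 2-sided exact sign-flip permutation test of log2(CPM + 1), with p-values adjusted over all 40 neighbouring pairs. Of the 40 pairs, 5 passed an adjusted p of 0.05. Ccn2 was higher in venous than arterial cells (mean log2 difference 0.92, 10 of 11 mice, exact adjusted p = 0.0312) and higher in arterial cells than in microglia (11 of 11 mice, exact adjusted p = 0.0195). Ccn3 was higher in capillary than venous cells (1.43, 9 of 11 mice, exact adjusted p = 0.0312). Ccn4 was higher in capillary than venous cells (0.72, 11 of 11 mice, exact adjusted p = 0.0195) and higher in venous cells than in microglia (9 of 11 mice, exact adjusted p = 0.0312). The other neighbours did not pass this threshold. For Ccn1 in arterial over capillary cells the mean log2 difference was 0.25 in 10 of 11 mice with an exact adjusted p of 0.0651. For Ccn3 in arterial over large-artery cells it was 1.06 in 8 of 11 mice with an exact adjusted p of 0.234. Pairs with fibroblasts rest on 4 mice and cannot give an exact p below 0.125. The count of pairs past the threshold was 6 without the shared barcodes, where Ccn3 had 2 in place of 1. It was 0 without R182C-TgN3 mouse 6, WT-TgN3 mouse 2 or WT-TgN3 mouse 5 and also with a stricter gate, and it was 2 or 3 without R182C-TgN3 mouse 1, 2, 3 or 4 or WT-TgN3 mouse 1 or 3.

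To set the types side by side at a fixed depth, each cell was thinned to 2000 UMIs, and shallower cells were left out (2824 endothelial cells, 52 SMC, 69 pericytes). Ccn1 was then found in 26.4% ± 4.33 of endothelial cells and 33.5% ± 4.70 of SMC (mean ± SD over 11 mice, 41.8% and 55.0% without thinning), against 1.61% of pericytes and 0.542% of microglia. Ccn2 was found in 24.4% ± 14.1 of fibroblasts (4 mice, 60.1% without thinning) and 19.2% ± 4.11 of SMC (39.6% without thinning). It was found in 10.2% of fenestrated, 4.11% of large-artery, 2.95% of capillary and 0.671% of arterial endothelial cells. Pericytes had 2.28% and microglia 0.045%. Ccn3 was found in 8.85% ± 3.27 of arterial cells (14.4% without thinning) and 0.475% of capillary cells, against 0.020% of microglia. Microglia stand here for cells that should lack these genes, with a median of 4955 UMIs per cell against 4788 in endothelial cells. An arterial cell positive for Ccn3 held 2.21 thinned UMIs of it on average, so the arterial level came from a minority of the arterial cells. Ccn3 was found in 0 of 418 thinned pericytes, for which 3 positive cells would make 0.718%, a limit that covers counting error only.

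**Figure D2:**
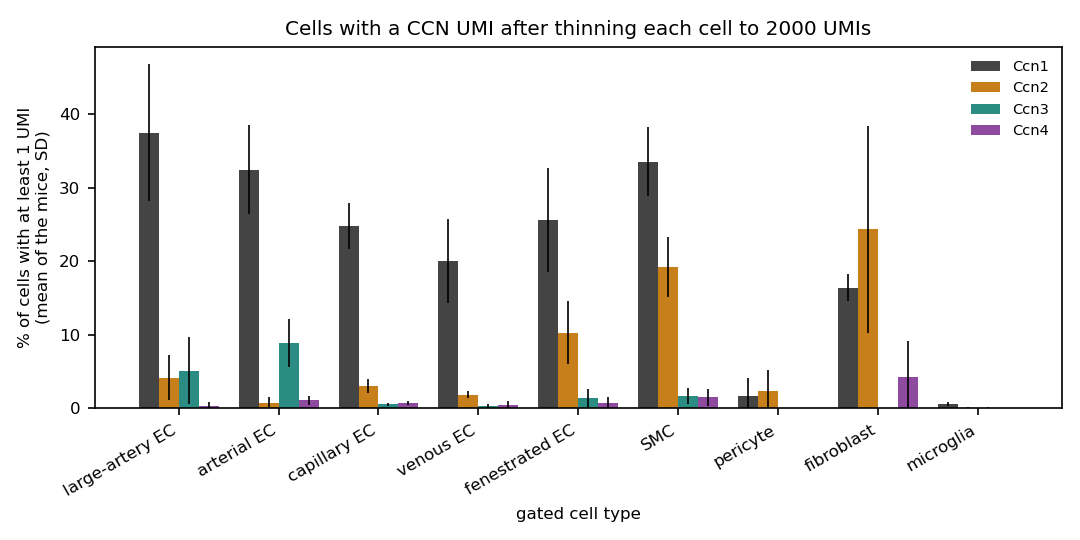
Mean share of cells with at least 1 UMI of Ccn1, Ccn2, Ccn3 or Ccn4 after thinning each cell to 2000 UMIs, by gated cell type, with the SD over mice as bars. Ccn1 is found in 33.5% of SMC and 26.4% of all endothelial cells but 1.61% of pericytes, Ccn2 mostly in fibroblasts, SMC and fenestrated cells, and Ccn3 mostly in arterial cells.

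Arterial endothelial cells differed from capillary cells of the same mice in the 4 members that entered the fit. Ccn3 was higher by 3.99 ± 0.14 on the log2 scale (SE, adjusted p = 5.87e-23, edgeR quasi-likelihood test with mouse as a block), Ccn4 by 1.27 ± 0.21 (adjusted p = 5.22e-06) and Ccn1 by 0.27 ± 0.04 (adjusted p = 5.78e-06). Ccn2 went the other way, with a log2 fold change of -1.52 ± 0.17 (adjusted p = 9.87e-10). Arterial and capillary cells differed in 50.0% of the 11421 genes tested, so that a call alone is no mark of the family, and Ccn5 did not enter the fit. The fold change of Ccn1 was small, and it missed the threshold in a fit without the mouse block.

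Genes listed with the family are read against all genes of this fit, of which 24.8% were higher and 25.1% lower in arterial cells. Of 22 other YAP/TAZ and TEAD target genes, 16 were tested, 12 were higher and 3 lower in arterial cells, with a median log2 fold change of 0.57 against -0.02 for all genes. Tgfb2, a TGF-beta ligand, rose by 1.505 ± 0.05, while the kinase gene Nuak2 had -1.73 ± 0.37. Igfbp3, an IGF-binding protein of this list, had 4.93, but it was a marker of the fenestrated gate. Of 13 tested pathway components, 6 were higher, with Tead2 at 0.86, and 4 were lower, with Tead1 at -0.41. Of 16 tested receptors and binding partners of CCN proteins, 8 were higher and 5 lower. Itgb3, the integrin chain that pairs with the alpha v chain as a CCN receptor, rose by 2.58 ± 0.19 (adjusted p = 9.94e-14), from 1.51 ± 0.44 CPM in capillary to 9.54 ± 3.69 CPM in arterial cells. Vegfa, whose product CCN2 can bind, rose by 2.62 ± 0.26, while Igf1r had -1.46 ± 0.04 and the integrin gene Itga6 -0.65 ± 0.03. Of 9 tested SRF and MRTF targets, 5 were higher and 0 lower, led by Filip1l at 0.72. Among 7 TGF-beta targets, 4 were higher, among them Smad7 at 0.53, and 3 were lower, led by Pmepa1 at -0.61. Of 3 tested matricellular genes outside the family, Sparcl1 (-1.18) and Sparc (-0.46) were lower, and Fbln5 was higher but was itself a marker of the large-artery gate. The immediate-early and dissociation genes split, with 7 of 17 higher, led by Nr4a1 at 0.69, and 5 lower, led by Ier3 at -0.54.

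Venous cells had less of each member that entered the fit than capillary cells of the same mice. The log2 fold changes were -0.35 ± 0.06 for Ccn1 (adjusted p = 3.97e-05), -0.73 ± 0.17 for Ccn2 (adjusted p = 0.000784), -1.93 ± 0.32 for Ccn3 (adjusted p = 1.28e-05) and -0.93 ± 0.25 for Ccn4 (adjusted p = 0.00286) by the edgeR quasi-likelihood test. Of the 11732 genes tested, 29.0% were lower in venous cells and 28.4% higher. Every one of the 17 immediate-early and dissociation genes was higher in venous cells, with a median log2 fold change of 0.61 and with Ier3 at 1.81, Zfp36 at 1.25 and Egr1 at 1.22, while Ccn1, a classical immediate-early gene, was lower. Their summed level was 22820 ± 4508 CPM in venous and 14169 ± 3611 CPM in capillary cells (n = 11). The YAP/TAZ and TEAD targets split, 6 of 16 higher and 6 lower, with Myof at 3.51, Rbms3 at 2.25 and Tgfb2 at -1.498. Of 13 pathway components 6 were higher and 2 lower: Yap1 rose by 0.74 ± 0.06, and Wwtr1, which encodes TAZ, had -0.32 ± 0.05. Among 17 receptors and binding partners, 6 were higher, with Bmp4 at 4.03 and the syndecan gene Sdc4 at 1.73, and 7 lower, with Igf1r at -1.06, Itga6 at -0.87 and Itgb5 at -0.86. TGF-beta targets were lower in 4 of 7, with Pmepa1 at -1.04, Skil at -0.70 and Smad7 at -0.63, and higher in 2, with the receptor decoy Bambi at 1.40. Of 9 SRF and MRTF targets 4 were higher, with Vcl at 1.58, and 2 lower, with Filip1l at -1.47. The 3 tested matricellular genes, Thbs2 (-1.44), Sparcl1 (-0.997) and Sparc (-0.90), were all lower in venous cells.

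SMC and pericytes, the mural cells on arteries and on capillaries, had very different CCN levels in the same 10 mice. Ccn1 was higher in SMC by 4.21 ± 0.21 on the log2 scale (adjusted p = 2.15e-22, edgeR quasi-likelihood test with mouse as a block) and Ccn2 by 3.80 ± 0.22 (adjusted p = 8.13e-20). Ccn3 entered the fit through its SMC counts. Its 259 UMIs in SMC and 1 UMI in pericytes make a ratio of 26.9 per UMI counted, with an exact 95% interval from 4.78 to 1065 that covers counting error only. Ccn4 had 125 UMIs in SMC and 0 in pericytes, and was at least 4.32-fold higher in SMC when the pericytes are set at 3 UMIs over the 10 mice. The fit held 8527 genes, 26.0% of them called as higher in SMC and 23.5% as lower. Ccn1 in pericytes was 72.1 CPM in R182C-TgN3 mouse 1 and 0 to 42.0 CPM in the other 9 mice, while SMC never fell below 246 CPM, so the 2 types did not overlap.

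**Figure D3:**
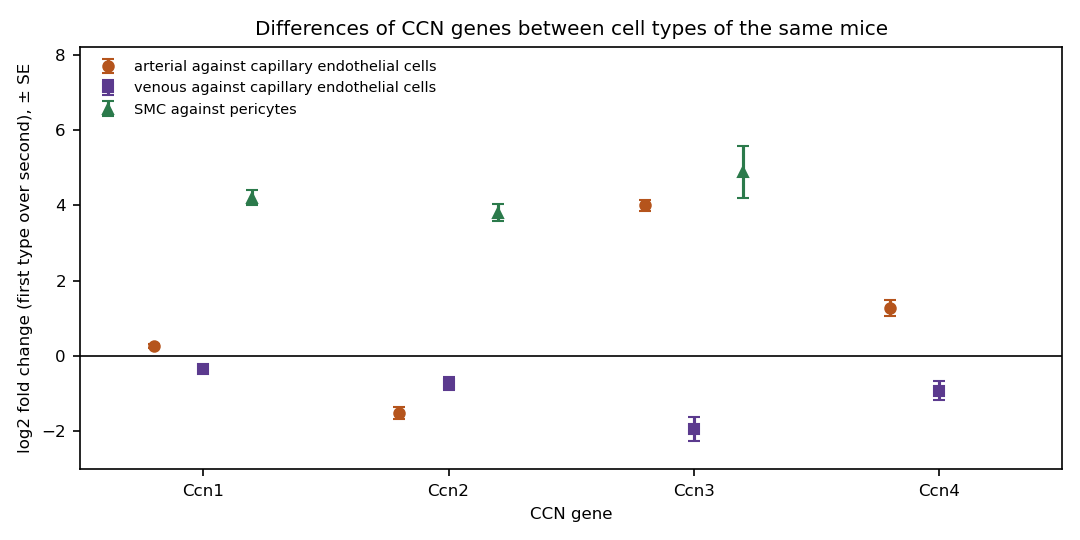
Log2 fold changes of Ccn1 to Ccn4 between cell types of the same mice, with the standard error of the fit as bars: arterial against capillary (circles), venous against capillary (squares) and SMC against pericytes (triangles). Arterial cells have more Ccn1, Ccn3 and Ccn4 and less Ccn2, venous cells less of each, and the SMC points lie near 4 or above; the triangle of Ccn3 rests on 1 pericyte UMI.

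The immediate-early list moved with this comparison, with 16 of 17 genes higher in SMC, a median log2 fold change of 3.10, and Atf3 at 4.62, Fos at 4.49 and Nr4a1 at 4.46. Their summed level was between 22283 and 42405 CPM in SMC and between 935 and 8920 CPM in pericytes, and its part in the Ccn1 and Ccn2 difference was not tested. All 10 SRF and MRTF targets were higher in SMC, but the largest, Cnn1, Tagln and Acta2, were gate markers. Of 7 TGF-beta targets, 6 were higher. Among them Thbs1, which encodes the matricellular TGF-beta activator thrombospondin, had 1807 UMIs in SMC and 1 in pericytes, a ratio of 187 with an exact 95% interval from 33.6 to 7408 that covers counting error only. Smad7, the feedback inhibitor, rose by 1.83 ± 0.16, while Col4a1 had -0.32 ± 0.09. The YAP/TAZ and TEAD targets went both ways. Of 18 tested, 5 were higher, with Dock5 at 3.14 and Crim1 at 2.39, and 9 were lower, with Nuak2 at -3.03, Ccdc80 at -2.63 and Ajuba at -1.81. Of 13 components 3 were higher, with Tead3 at 1.92, and 3 lower. Of 12 tested CCN partners, Sdc4 (3.74), Itgb1 (1.00) and Igf1r (0.87) were higher in SMC and 8 were lower, with Bmp4 at -5.30, Notch1, a partner of CCN3, at -1.74 and Lrp1, a receptor of CCN2, at -1.30. Besides Thbs1, the matricellular gene Sparcl1 was higher (1.41), and Sparc (-0.80) and Spp1, which encodes osteopontin, were lower. Spp1 rests on 30 UMIs in pericytes and 2 in SMC, a pericyte-to-SMC ratio of 145 with an exact 95% interval from 36.7 to 1249 for counting error.

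The endothelial sums of the genotypes, on which the family was chosen, are described first. Ccn2 in endothelial cells was 16.4, 12.7, 21.3, 10.8, 15.9 and 15.2 CPM in R182C-TgN3 mice 1 to 6 and 13.5, 8.50, 10.7, 11.4 and 10.7 CPM in WT-TgN3 mice 1 to 5. Of the R182C-TgN3 mice, 4 of 6 lay above the highest WT-TgN3 mouse, and the groups overlapped. Ccn3 was 22.2, 19.4, 6.17, 17.9, 19.2 and 10.2 CPM in R182C-TgN3 mice and 25.7, 28.1, 21.8, 32.5 and 29.5 CPM in WT-TgN3 mice, with 5 of 6 R182C-TgN3 mice below the lowest WT-TgN3 mouse. The log2 fold changes, R182C-TgN3 over WT-TgN3, were 0.55 ± 0.16 for Ccn2 and -0.78 ± 0.25 for Ccn3. Without R182C-TgN3 mouse 3, which had the highest Ccn2 and the lowest Ccn3, they were 0.41 and -0.62. Ccn1 differed little, at -0.02 ± 0.22, with 184 to 322 CPM in R182C-TgN3 and 171 to 420 CPM in WT-TgN3 mice, and Ccn4 had 0.05 ± 0.26. Of 12838 genes in this fit, 0% passed an adjusted p of 0.05 by edgeR, 140 had an unadjusted p under 0.05, and DESeq2 called 0. Beside these values, the 6 SMC markers summed to 12.1 to 140 CPM in endothelial cells of R182C-TgN3 mice and to 9.62 to 52.8 CPM in those of WT-TgN3 mice, with no marker at 0. The 5 pericyte markers summed to 3.90 to 47.3 CPM and 3.86 to 14.9 CPM. The immediate-early list summed to 11116 to 21637 CPM and 13445 to 22493 CPM. The part of these lists in the Ccn2 and Ccn3 values was not tested.

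The endothelial subtypes are set side by side for the same contrast. In capillary cells Ccn2 was 13.2 to 33.4 CPM in R182C-TgN3 mice (median 17.9) and 13.7, 10.8, 12.6, 13.1 and 14.4 CPM in WT-TgN3 mice. The log2 fold change was 0.70 ± 0.21, with 5 of 6 R182C-TgN3 mice above every WT-TgN3 mouse. Capillary cells held 1720 of the 3134 Ccn2 UMIs of endothelial cells, so this value is not separate from the contrast on which the family was chosen. The log2 fold change of Ccn2 was 0.12 ± 0.27 in venous, 0.30 ± 0.35 in arterial and -0.53 ± 0.32 in fenestrated cells. Large-artery Ccn2, with 128 UMIs over all mice, did not pass the filter on low counts. There the R182C-TgN3 mean was 3.35 times the WT-TgN3 mean, the largest such ratio for Ccn2 among these subtypes. Of the 6 R182C-TgN3 mice, 3 lay above the highest WT-TgN3 mouse. After thinning to 2000 UMIs, the mean share of large-artery cells with Ccn2 was 4.11% for R182C-TgN3 and 4.10% for WT-TgN3. The groups overlapped in each of these subtypes, capillary cells included. For Ccn3 the log2 fold change was -1.17 ± 0.43 in capillary, -0.64 ± 0.36 in arterial and -1.66 ± 0.54 in large-artery cells, while the mean of fenestrated cells was 1.34 times as high in R182C-TgN3 as in WT-TgN3 mice. The groups overlapped in all 4 subtypes. Of the 6 R182C-TgN3 mice, 1 lay below the lowest WT-TgN3 mouse in capillary, 3 in arterial and 0 in large-artery cells, which held 200 UMIs of Ccn3 over all mice. In arterial cells thinned to 2000 UMIs, 10.1% to 11.8% held Ccn3 in WT-TgN3 mice and 0.478% to 11.7% in R182C-TgN3 mice, the lowest being mouse 3. Within batches the log2 ratio of endothelial Ccn2 was 0.40, 0.28 and 0.51 and that of Ccn3 was -0.58, -0.53 and -1.09 in the 3 batches with both genotypes. In capillary cells the same ratio was 0.42, 0.38 and 0.45 for Ccn2 but -1.41, -0.72 and 0.75 for Ccn3, so the sign of capillary Ccn3 turned in 1 batch. In arterial cells it was 0.58, 0.59 and -0.40 for Ccn2 and -0.40, -0.07 and -1.26 for Ccn3, with arterial Ccn2 turned in that same batch, which held 1 mouse of each genotype. Whether the subtypes differ from each other in the genotype difference was not tested. In large-artery cells Ccn4 did not pass the filter on low counts, and 1 of 597 cells thinned to 2000 UMIs held it. Before thinning it had 12 UMIs over the 5 WT-TgN3 mice and 0 over the 6 R182C-TgN3 mice, a difference that was not tested. Setting the R182C-TgN3 mice at 3 UMIs over the group gives a bound of 5.82-fold, which takes the 12 UMIs as exact. WT-TgN3 mouse 5 held 5 of the 12 UMIs in 20 cells, and without it the bound is 3.75-fold.

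**Figure D4:**
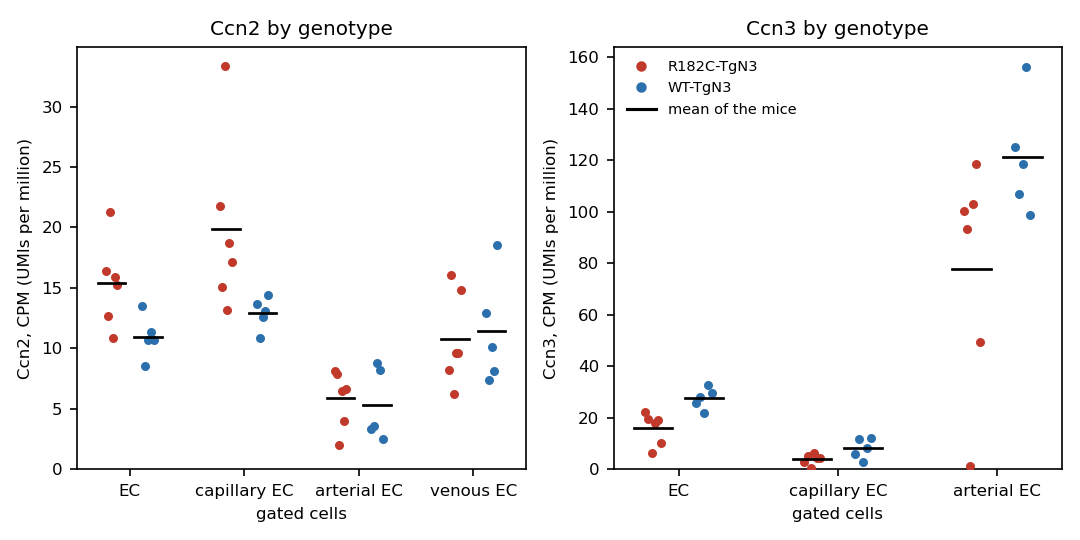
Ccn2 and Ccn3 in CPM, 1 point per mouse, in all endothelial cells outside the fenestrated type and in their subtypes, with lines for the mean of the mice; the genes were chosen on the endothelial contrast, so the panels are a description. Capillary Ccn2 is above every WT-TgN3 mouse in 5 of 6 R182C-TgN3 mice, and 1 R182C-TgN3 mouse lies near 0 for arterial Ccn3.

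In SMC, the cells around which NOTCH3 deposits form in CADASIL, no member passed the threshold between genotypes. The log2 fold changes were 0.07 ± 0.13 for Ccn1, 0.27 ± 0.18 for Ccn2, -0.01 ± 0.36 for Ccn3 and -0.05 ± 0.32 for Ccn4, each with an adjusted p of 0.9999 by the edgeR quasi-likelihood test. Ccn2 ran from 151 to 198 CPM (median 164) in R182C-TgN3 mice and was 76.0, 106, 177, 140 and 222 CPM in WT-TgN3 mice, which thus spread on both sides of the other group. Within the 3 batches its log2 ratio was -0.23, 0.91 and -0.11. The signs of Ccn3 and Ccn4 turned in some alternatives, and the sign of Ccn1 turned without WT-TgN3 mouse 1. Of 8847 genes, 0.0113% were called in SMC, which is 1 gene, human NOTCH3 itself (log2 fold change 2.48 ± 0.28, adjusted p = 0.000342 by edgeR), while 222 had an unadjusted p under 0.05 and DESeq2 called 1. The mouse gene Notch3 was at 595 ± 77.05 CPM in R182C-TgN3 and 643 ± 43.5 CPM in WT-TgN3 mice. Of 8 tests of whether this genotype difference varied with age or sex, 4 members by each, none passed, the lowest adjusted p being 0.981.

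No member passed the filter on low counts in pericytes. Ccn1 was 0 to 72.1 CPM in the 6 R182C-TgN3 and 0 to 42.0 CPM in the 4 WT-TgN3 mice, and Ccn2 was 0 to 40.8 and 0 to 28.6 CPM. Of 2510 genes, 0.0398% were called, again human NOTCH3 alone (log2 fold change 1.40 ± 0.19), and 132 had an unadjusted p under 0.05. In fibroblasts the comparison rests on 3 R182C-TgN3 mice and 1 WT-TgN3 mouse, whose lone value is assumed to vary like the others. Ccn2 was 85.1, 209 and 273 CPM against 44.1 CPM, a log2 fold change of 2.08 ± 0.59, and Ccn1 had 0.09 ± 0.51. Calls are not given for this comparison of mice with at least 10 fibroblasts, since 1 WT-TgN3 mouse cannot show the spread of its group. Leaving out each R182C-TgN3 mouse, which leaves 3 mice, gave log2 fold changes of Ccn2 from 1.71 to 2.45. In the wider set of mice with at least 3 fibroblasts the log2 fold change of Ccn2 was 1.66 and did not pass the threshold by edgeR. None of the YAP/TAZ, TGF-beta, SRF, CCN partner, matricellular or immediate-early genes tested passed the threshold between genotypes in endothelial cells, SMC or pericytes by edgeR.

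Endothelial Ccn1 was higher in 4 of the 5 older mice, all from 1 batch, but did not pass the threshold for age. It was 270, 184, 232, 226, 171 and 194 CPM in the 6 mice of 6 months (3 R182C-TgN3 mice, then 3 WT-TgN3 mice) and 322, 322, 188, 303 and 420 CPM in the 5 mice of 9 months (3 and then 2), so that 4 of the 5 older mice lay above every younger mouse. These 4 mice belonged to the same batch. The other older mouse, R182C-TgN3 mouse 3 at 188 CPM, came from another batch and lay within the range of the younger mice. The log2 fold change at constant genotype was 0.55 ± 0.17 (adjusted p = 0.115, edgeR quasi-likelihood test), 0.69 without R182C-TgN3 mouse 3 (adjusted p = 0.0176), and it passed by DESeq2 with an adjusted p of 0.0258. Ccn2 had 0.17 ± 0.16, Ccn3 0.15 ± 0.25 and Ccn4 -0.08 ± 0.28, with adjusted p of 0.629, 0.7997 and 0.913. Of 13210 genes, 1.70% were called, 99 higher and 126 lower at 9 months. This count ran from 4 without WT-TgN3 mouse 5 to 449 without R182C-TgN3 mouse 3, and of the 11 mice only WT-TgN3 mouse 2 could be left out without moving it by over 1.5 times. Among the listed genes these included the heat shock gene Hspa1a (1.27 ± 0.28, adjusted p = 0.0444), Smad7 (0.53 ± 0.08, adjusted p = 0.0145) and Rbms3 (-0.81 ± 0.10, adjusted p = 0.0145), and no other. The immediate-early list had a median log2 fold change of 0.38 against 0.00 for all genes, and its summed level was 19240 ± 3375 CPM at 9 months and 15500 ± 2992 CPM at 6 months. Its part in the Ccn1 values was not tested.

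**Figure D5:**
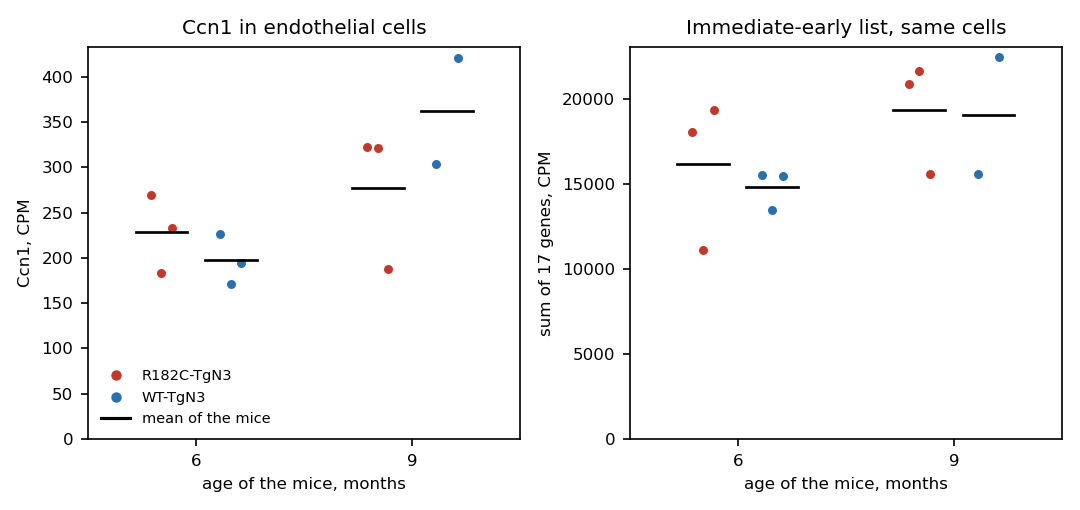
Ccn1 (left) and the summed level of the 17 immediate-early and dissociation genes (right) in endothelial cells, in CPM, 1 point per mouse by age and genotype, with lines for the mean of the mice. At 9 months, 4 of 5 mice, all from 1 batch, have more Ccn1 than every mouse of 6 months. R182C-TgN3 mouse 3, from another batch, has 188 CPM. The mice of each age came from other batches.

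The genes most like the members in pattern were ranked by Pearson's r of log2(CPM + 1), as a description. Across the 9 gated types Ccn1 was closest to Tomm7 (r = 0.975), Pdgfd (0.974), which encodes a PDGF ligand, and Guk1 (0.969), among 7214 genes. Across the 11 endothelial sums it was closest to Taf7 (0.948), Helz2 (0.944) and Lmna (0.944), which encodes the nuclear lamins A and C, among 6502 genes. Ccn3 was closest to Tspan2 (0.941), Bnip2 (0.937) and Myo1e (0.922) across types, and to Usp12 (0.954), Aim2 (0.929) and Fmnl3 (0.926) across the endothelial sums. The types come from the same 11 libraries, and the endothelial sums share depth and batches, so no test was made.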

How the data were processed

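The authors made the libraries with a 10x droplet kit and counted UMIs with Cell Ranger 7.0.0 against mm10 with human NOTCH3 added, and they deposited raw counts of UMIs per gene and called barcode, which were checked to be whole numbers. Cells needed 500 detected genes or more and no more than 10% of UMIs from mitochondrial genes, and doublets scored against simulated doublets were removed at 0.8% per 1000 barcodes (3046 barcodes). Cells were gated per type by the summed level of fixed marker genes, with at least 3 markers detected and a lead over every other type, and cells in no gate were left out. Raw counts were summed per mouse and type. CPM are UMIs per 1e+06 UMIs of that sum. Each mouse is a replicate and all 11 mice were kept, also the control, not matched to a label here, that the study omitted from its microglial analysis.

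Like the study, the fits omitted Gm, Rik, mitochondrial and ribosomal genes. The sums of genes passing filterByExpr were scaled by TMM, and the quasi-likelihood test of edgeR 4.0.16 in R 4.3.3 was used, with Benjamini-Hochberg adjustment over all genes tested, with the mouse as a block between cell types and genotype as a covariate for age. Neighbouring levels were compared by exact sign-flip permutation tests of log2(CPM + 1). The fit was tested on simulated data. Python 3.11.15 with scipy 1.17.1 was used elsewhere. Alternatives were DESeq2 1.42.0 and its size factors, no filter on low counts, all genes kept, 1000 genes or 20% mitochondrial UMIs as limits, doublets kept, a stricter gate, covariates, replicate blocks and each mouse left out. After seeing the data, shared barcodes were left out and fibroblasts were taken from mice with at least 3 of them.

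The members, marker genes and 7 gene lists were chosen with earlier results of these data known. Named were every member, up to 3 genes per list, comparison and direction past the threshold with the largest fold change, and the 3 genes most like each member with at least 20 CPM in endothelial cells. Some genes that this rule names are not reported here. At 17550806 to 64215050 UMIs per library, a level near 1 CPM is not measurable in pericytes or fibroblasts, and intervals and limits cover counting error only.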

Additional observations from a re-analysis of the deposited data

Results flagged for a closer look

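In groups of at least 4 mice, 54 combinations of member, cell type and genotype had enough UMIs to be searched. A mouse far from the rest of its group was found in 2 of them. Chance flags about 1 group in 20, a rate that 2 of 54 does not exceed. Both were R182C-TgN3 mouse 1. Its pericytes had 72.1 CPM of Ccn1 (16 UMIs), the highest of the 6 R182C-TgN3 mice, with 20.4 CPM in the next. Its arterial endothelial cells had 4.08 CPM of Ccn4 (13 UMIs), the lowest of the 6, with 8.12 CPM in the next. The cause was not tested.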

How the results depend on the processing

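In the fits between cell types, each member kept its direction and its side of the threshold under every alternative that it entered. The exception was Ccn1, which without the mouse block missed the threshold for arterial (0.28) and venous (-0.34) against capillary cells. For SMC against pericytes, Ccn3 entered 17 alternatives through its SMC counts, and Ccn1 and Ccn2 entered 20. In SMC the genotype fold change of Ccn3 changed sign with DESeq2 (0.014), 1000 genes (0.0015), doublets kept (0.0052), a stricter gate (0.10) and shared barcodes left out (0.046), and that of Ccn4 with 20% mitochondrial UMIs (0.0012). Leaving out each mouse gave -0.0030 to 0.19 for Ccn1, -0.38 to 0.34 for Ccn3 and -0.16 to 0.091 for Ccn4 in SMC, none past the threshold. In fibroblasts Ccn1 turned to -0.097 with 20% mitochondrial UMIs and -0.27 with age as a covariate (-0.54 to 0.44 leaving out each mouse). Fibroblast Ccn2 had 2.08 with no filter on low counts and 2.25 with 20% mitochondrial UMIs, and ran from 1.71 to 2.45 leaving out each R182C-TgN3 mouse and down to 0.48 among all alternatives. Genes called in fibroblasts were 0 with DESeq2, 1000 genes, doublets kept, a stricter gate or mice with at least 3 cells, 54 with no filter, 37 with all genes kept, 42 with 20% mitochondrial UMIs, 8 with age as a covariate and 20 to 49 leaving out each mouse. In pericytes they were 23 with no filter, 5 with batch and 4 with age as a covariate. With age, Ccn1 had 0.55 by DESeq2 and 0.40 to 0.69 leaving out each mouse, Ccn4 had -0.22 to 0.21, and the genes called were 696 with DESeq2, 135 with sex as a covariate and 4 to 449 leaving out each mouse. Neighbouring levels past the threshold were 0 with a stricter gate and 0 to 5 leaving out each mouse. Thinned to 1000 UMIs, the shares were 16.4% (Ccn1, endothelial cells), 22.4% (Ccn1, SMC), 11.5% (Ccn2, SMC) and 5.37% (Ccn3, arterial cells), and without thinning 41.8%, 55.0%, 39.6% and 14.4%. The cause was not tested, beyond the smaller number of mice or cells in some alternatives.

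Mice that share an age and a label number did not all deviate together (r across 12838 genes from -0.083 to 0.39 in endothelial cells), so the numbers were not taken as pairs. With the replicate block on 5 such pairs, endothelial Ccn2 was 0.41 and Ccn3 -0.64, the genes called were 0 in endothelial cells, 1 in SMC and 5 in pericytes, and no member's call changed. Batch as a covariate and the replicate block could not be fitted in fibroblasts, nor could the fit without their only WT-TgN3 mouse. Pericyte values rest on 0 to 16 UMIs of a member per mouse.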
